A study of Mus musculus with 12 samples.

Results

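The genes described here are 10 markers of the minority cells of the liver: Clec4f, Cd5l, Adgre1 and Marco of Kupffer cells, Stab1, Stab2, Clec4g and Oit3 of sinusoidal endothelial cells, and Reln and Dcn of stellate cells. They were compared with all 21911 protein-coding genes of the GENCODE M21 annotation of mm10 (GRCm38). A peak belonged to a gene when it overlapped, by at least 1 bp, the gene body or the 5 kb on either side of the annotated start, an interval called the gene window below. By this rule 24 of the 102889 peaks in the 6 deposited lists belonged to the 10 genes. The question was how far peaks called on whole liver reach genes of cells that are few in it.

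Histone H3 acetylated at lysine 9 (H3K9ac) was mapped with ChIP-seq, the sequencing of immunoprecipitated chromatin, in fixed liver of adult mice. The H3K9ac libraries were 2 of C57BL/6J (B6), 2 of MSM/Ms (MSM), 1 each of the reciprocal F1 hybrids F1 BM (dam B6, sire MSM) and F1 MB (dam MSM, sire B6). The 6 input libraries were not analysed here. The replicates of each parental strain were different mice, and the F1 values have no replicate error. Whole liver was used without separating cells, and most of its chromatin comes from hepatocytes. A weaker peak from fewer cells of a type and one from less acetylation per cell cannot be told apart.

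H3K9ac is found at the starts of active genes, mostly just downstream of the start, and at active enhancers. Kupffer cells are the resident macrophages of the liver, which sit in the sinusoids and take up particles, bacteria and old red cells. Sinusoidal endothelial cells line these capillaries, carry open pores (fenestrae) and clear macromolecules from blood with scavenger receptors and lectins. Stellate cells lie between endothelium and hepatocytes, store vitamin A and make much of the matrix of the liver.

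The peak lists reached endothelial genes in some libraries, reached 1 stellate gene in 1 library and reached no Kupffer gene. All 4 endothelial genes had a peak in B6 replicate 1 and in F1 BM, 2 had one in MSM replicate 2, and 1 had one in MSM replicate 1 and in F1 MB. B6 replicate 2 held no peak in any of the 10 windows. In total 4, 0, 1, 2, 5 and 1 of the 10 genes had a peak in B6 replicates 1 and 2, MSM replicates 1 and 2, F1 BM and F1 MB. The shares among all protein-coding genes were 50.8%, 33.3%, 41.8%, 42.5%, 42.2% and 37.1% in the same order. The counts in B6 replicate 1 and F1 BM were therefore near the background share, and those in the other 4 libraries were below it. In all, 5 of 10 genes had a peak in at least 1 library, against 52.8% of all genes, and 0 of 10 had one in all 6 libraries, against 28.5% of all genes.

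**Figure D1:**
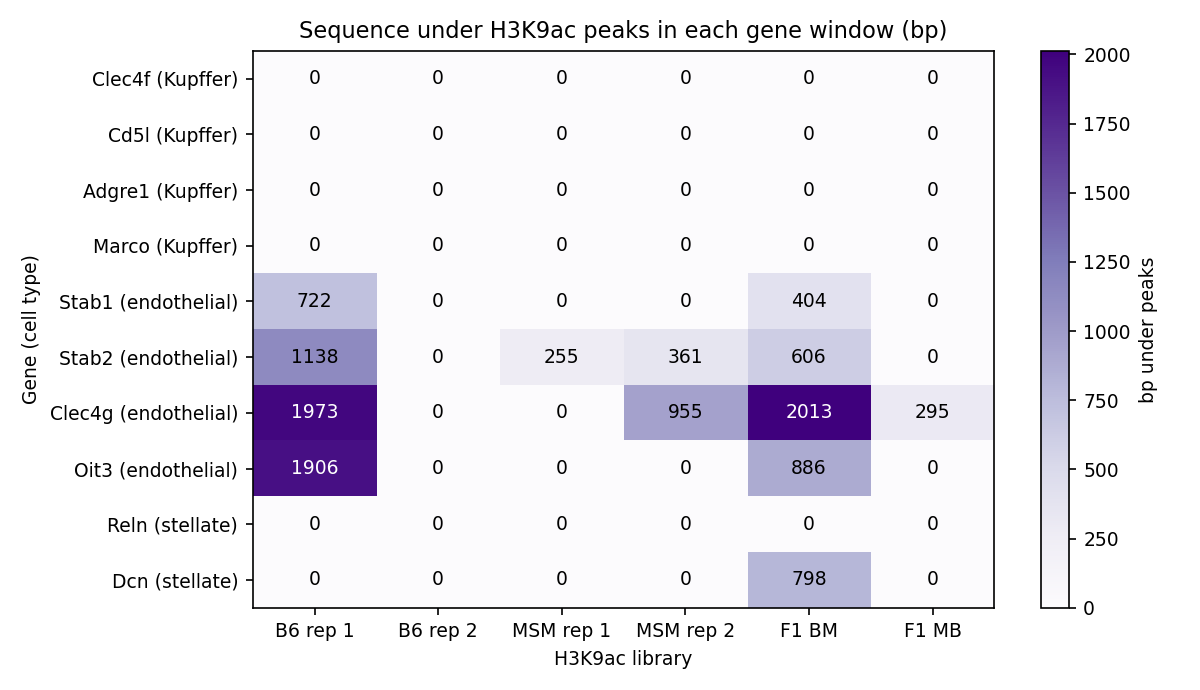
Length of sequence under H3K9ac peaks (bp, printed in each cell and shaded) in the window of each of the 10 genes (vertical axis, with cell type) in each of the 6 libraries (horizontal axis). Values stand for single libraries. The filled cells lie in the 4 endothelial genes and Dcn, and the B6 replicate 2 column is 0 throughout.

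The sequences just before 3 of the starts are shown because they span what the lists held. Clec4f is a Kupffer gene with no peak, Stab2 is an endothelial gene with a peak in 4 libraries, and Reln is a gene with a CG-dense start and no peak. They are the 250 bases before the RefSeq start (GRCm38.p6), each on the minus strand and 5′ to 3′, with every CG dinucleotide in capitals. They lie at chr6:83656117-83656366, chr10:87007943-87008192 and chr5:22344706-22344955.
Clec4f: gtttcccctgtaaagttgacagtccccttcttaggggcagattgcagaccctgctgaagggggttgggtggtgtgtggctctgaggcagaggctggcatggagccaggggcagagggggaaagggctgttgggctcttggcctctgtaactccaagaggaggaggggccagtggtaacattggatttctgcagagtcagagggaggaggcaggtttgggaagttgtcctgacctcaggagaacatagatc
Stab2: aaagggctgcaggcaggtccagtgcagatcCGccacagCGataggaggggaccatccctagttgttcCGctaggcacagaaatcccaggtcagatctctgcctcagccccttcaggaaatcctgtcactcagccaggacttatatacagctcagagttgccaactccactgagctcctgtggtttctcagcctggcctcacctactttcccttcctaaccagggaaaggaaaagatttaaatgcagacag
Reln: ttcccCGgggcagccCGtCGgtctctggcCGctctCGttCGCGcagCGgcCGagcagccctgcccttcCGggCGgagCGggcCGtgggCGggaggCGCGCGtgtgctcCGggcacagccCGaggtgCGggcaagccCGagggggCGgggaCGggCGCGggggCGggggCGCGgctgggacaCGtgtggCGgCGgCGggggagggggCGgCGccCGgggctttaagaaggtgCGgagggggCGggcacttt
They hold 0, 3 and 37 CG, beside a median of 12 over the 14263 protein-coding genes with a RefSeq promoter sequence. Among the 10 genes, 7 had such a sequence (all but Adgre1, Oit3 and Dcn), too few for a comparison of CG content with the peak calls. In the other 4 the same stretch held 0 CG in Cd5l, 0 in Marco, 5 in Stab1 and 4 in Clec4g. The RefSeq starts of Stab2 and Clec4f lie 83 and 71 bp downstream of the annotated starts from which distances are counted here, so both stretches reach into the annotated genes. The Stab2 stretch was overlapped there by a peak in 3 libraries, while the other 6 stretches were overlapped by none. The letters AGGAAG, the core bound by ETS factors, were found on either strand in the promoters (250 bases before to 50 after the start) of Cd5l, Marco, Stab1, Stab2 and Clec4g and in 34.2% of all promoters.

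The Kupffer genes were Clec4f, a galactose-binding lectin receptor restricted to these cells, Cd5l, a secreted scavenger protein of macrophages, Adgre1, which encodes the F4/80 antigen, and Marco, a scavenger receptor for bacteria. None of the 4 had a peak in any library, as was the case for 47.2% of all genes. Their windows, 16.6 kb for Clec4f, 18.2 kb for Cd5l, 129.8 kb for Adgre1 and 35.5 kb for Marco, held no peak at any place, so the absence was not one of the start alone. Among protein-coding genes at least as long as Adgre1, 44.2% also had no peak in any library.

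The nearest peak to each Kupffer start lay well outside the gene window in every library. For Clec4f (chr6:83644542-83656187, minus strand) it was 83.7 to 119.2 kb from the start over the 6 libraries. For Cd5l (chr3:87357881-87371073, plus strand) the distance was 150.6 to 167.9 kb. For Adgre1 (chr17:57358691-57483527, plus strand) it was 81.7 to 124.2 kb, and the closest protein-coding start to that peak was Vav1, C3, Trip10 or Gpr108, depending on the library. Marco (chr1:120474538-120505024, minus strand) was the most isolated of the 4, with 234.8 to 239.9 kb to the nearest peak.

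Stab1 (ENSMUSG00000042286.13, chr14:31139013-31168641, minus strand) encodes stabilin-1, a scavenger receptor of sinusoidal endothelium and some macrophages. In B6 replicate 1 a peak of 722 bp had its summit 616 bp downstream of the start, in an intron, with a fold enrichment of 5.85 and a −log10 q of 8.39. Fold enrichment is the authors' linear ratio of signal over background at the summit, and −log10 q their measure of confidence, where 1.3 corresponds to a q-value of 0.05. In F1 BM a peak of 404 bp had its summit at 870 bp, with a fold of 3.63 and a −log10 q of 6.06. The peaks shared 285 bp. The other 4 libraries had 0 bp under peaks at Stab1, and in those libraries the nearest peak was 36.8 to 37.5 kb away, near Tnnc1.

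Stab2 (ENSMUSG00000035459.18, chr10:86841198-87008025, minus strand) encodes stabilin-2, the hyaluronan clearance receptor of the sinusoids. The length under its peaks was 1138 and 0 bp in the B6 replicates, 255 and 361 bp in the MSM replicates, 606 bp in F1 BM and 0 bp in F1 MB. Each was 1 peak at the 5′ end of a gene body of 166828 bp, and no other place in the body had one. The summits lay 439, 194, 345 and 222 bp downstream of the start in the 4 libraries with a peak, each in a coding exon or an intron, and the 4 peaks had 186 bp in common. The fold was 6.64 in B6 replicate 1, 4.95 in MSM replicate 1, 5.69 in MSM replicate 2 and 4.88 in F1 BM. The −log10 q in the same libraries was 10.4, 4.84, 6.75 and 14.4, so the most confident Stab2 call was that of F1 BM although its fold was the lowest of the 4.

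Clec4g (ENSMUSG00000074491.9, chr8:3707064-3720651, minus strand) encodes LSECtin, a C-type lectin of sinusoidal endothelium, and had the most peaks, 10 of the 24. Its covered length was 1973 and 0 bp in the B6 replicates, 0 and 955 bp in the MSM replicates, 2013 bp in F1 BM and 295 bp in F1 MB. These peaks merged into 3 regions, all downstream of the start. The first region, 55 to 1574 bp from the start, had peaks in 4 libraries. Within it B6 replicate 1 had the strongest peak by fold of all 24, 1407 bp wide with a fold of 6.99 and a −log10 q of 12.3. F1 BM had a peak of 859 bp there with a fold of 5.45 and the highest −log10 q of the 24, 14.5. MSM replicate 2 had peaks with summits at 192 and 1317 bp and folds of 4.25 and 4.87. The only peak of F1 MB in any of the 10 windows had its summit at 1199 bp, a fold of 3.91 and a −log10 q of 3.32. In each of the 4 libraries, 1 peak of this region held the bases chr8:3719415-3719486. In F1 BM it was a second peak, 248 bp wide with its summit at 1172 bp and a fold of 3.84. In MSM replicate 2 it was the peak with its summit at 1317 bp. The 859 bp peak of F1 BM and the MSM replicate 2 peak at 192 bp did not hold these bases. The 6 peaks of the region together had 0 bp in common. The second region, 2080 to 2754 bp from the start, had a peak in B6 replicate 1, MSM replicate 2 and F1 BM, with folds of 3.60, 4.34 and 3.85. The third region, 3020 to 3273 bp from the start, was seen in F1 BM only, with a fold of 4.20, and its summit lay 36 bp from the start of another annotated transcript of Clec4g.

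Oit3 (ENSMUSG00000009654.4, chr10:59422958-59441778, minus strand) encodes a protein with a zona pellucida domain that is used as a marker of sinusoidal endothelium. Its peaks covered 1906 bp in B6 replicate 1 and 886 bp in F1 BM, and 0 bp in the other 4 libraries. B6 replicate 1 had 4 peaks, with summits 1487 bp upstream and 404, 1232 and 1871 bp downstream of the start and folds of 2.53, 4.28, 5.34 and 4.25. F1 BM had 3, with summits 1386 bp upstream and 256 and 1349 bp downstream and folds of 2.52, 3.34 and 2.40. All but the peak at 1871 bp thus had a partner in the other library, and the shared lengths were 228, 239 and 419 bp. Oit3 was the only one of the 10 genes with peaks upstream of its start. In the libraries without an Oit3 peak, the nearest was 33.5 to 37.3 kb away.

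**Figure D2:**
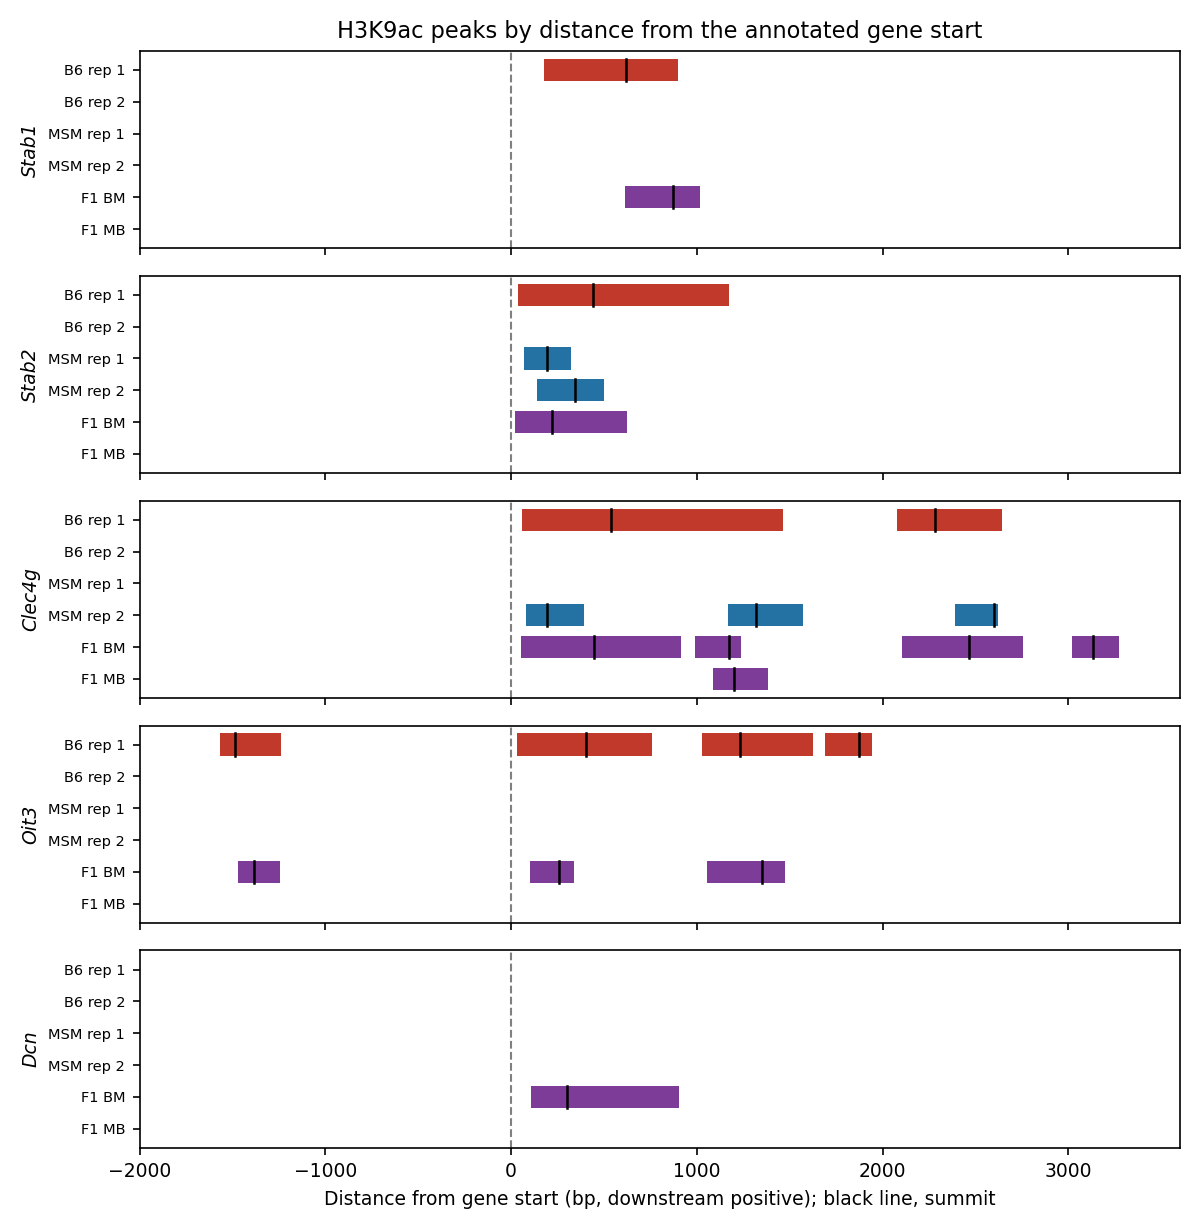
Position of every peak of Stab1, Stab2, Clec4g, Oit3 and Dcn by distance from the annotated start (horizontal axis, bp, downstream positive, dashed line at the start), with 1 row per library and a black line at the summit. Red bars are B6, blue MSM and purple F1 libraries. The peaks lie close to the starts, none crosses the start, and the Stab2 peaks of 4 libraries overlap one another.

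Of the stellate genes, Reln (ENSMUSG00000042453.14, chr5:21884454-22344702, minus strand) encodes reelin, a secreted matrix glycoprotein. No peak lay anywhere in its window of 465.2 kb in any library, and the nearest peak was 204.9 to 205.3 kb from the start, at Orc5, in all 6. Among genes at least as long as Reln, 58.5% had no peak in any library. Dcn (ENSMUSG00000019929.16, chr10:97479609-97518143, plus strand) encodes decorin, a collagen-binding proteoglycan. It had a single peak, in F1 BM, 798 bp wide with its summit in an intron 300 bp downstream of the start, a fold of 3.45 and a −log10 q of 5.54. The other 5 libraries had 0 bp at Dcn, and their nearest peak was 165.7 to 861.4 kb away.

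As a group the 24 peaks had folds from 2.40 to 6.99 (median 4.25), widths from 228 to 1407 bp (median 407) and −log10 q values from 2.88 to 14.5 (median 6.26). By fold they were of middling rank, since 13 of the 24 exceeded the median fold of their own list. By −log10 q they ranked low, and only 2 exceeded the median of their own list, the Stab2 and Clec4g start peaks of F1 BM. The median percentile within the list was 51.1 for fold and 23.9 for −log10 q. The summits were downstream of the start in 22 peaks, 17 lay in introns, 5 in coding exons and 2 outside the gene. No peak lay within 1 kb of the start of another gene of any type, and the least distance was 6554 bp.

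Of the 24 peaks, 13 overlapped the 1 kb on either side of a start. A peak within 1 kb of the start was present for 4, 0, 1, 2, 5 and 0 of the 10 genes in the library order above, against 44.2%, 27.9%, 35.5%, 36.2%, 35.3% and 31.7% of all protein-coding genes. At least 1 library had such a peak for 5 of 10 genes, against 45.8% of all genes, and no library did for the other 5, against 54.2%. In all 6 libraries it was present for 0 of 10 genes, against 23.6%. Only F1 MB lost its gene under this narrower rule, because its Clec4g peak began 1088 bp downstream. None of these start peaks spanned the start itself, whereas 18.3% to 39.9% of all genes with a start peak had one that did. Among hepatocyte genes with a start peak, 1 to 5 of 18 had one spanning the start.

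The lists themselves differed in length, which moved with the counts above. The lists held 22968 and 11619 peaks for B6 replicates 1 and 2, 17310 and 17584 for MSM replicates 1 and 2, 20173 for F1 BM and 13235 for F1 MB, and covered between 6.28 and 16.0 Mb. The 2 longest lists were those with all 4 endothelial genes, and the 2 shortest had 0 and 1 gene. When every list was limited to its 11619 peaks of highest −log10 q, Clec4g remained in B6 replicate 1 and Stab2 and Clec4g remained in F1 BM, and no other gene had a peak in any library. When every list was limited to the same covered length, no gene of the 10 had a peak in any library, while 16.2% to 27.9% of all protein-coding genes and 15 to 18 of 19 hepatocyte genes still had one within 1 kb of the start. Most of the peaks at these genes were therefore not among the most confident of their lists, and their presence differed between libraries together with list length.

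Between the parental strains, no gene of the 10 differed beyond the spread between replicates. Covered length at Stab1 was 722 and 0 bp in B6 and 0 and 0 bp in MSM, or 361 ± 511 and 0 ± 0 bp (mean ± SD, n = 2 each). At Stab2 the values were 1138 and 0 bp in B6 and 255 and 361 bp in MSM, or 569 ± 805 and 308 ± 75.0 bp. At Clec4g they were 1973 and 0 bp against 0 and 955 bp, or 986.5 ± 1395 and 477.5 ± 675 bp. At Oit3 they were 1906 and 0 bp against 0 and 0 bp, or 953 ± 1348 and 0 ± 0 bp. The B6 replicates were farther apart than the strain means at each of these genes. The differences of MSM minus B6 were −361, −261, −509 and −953 bp, and each had p = 1 in a two-sided exact permutation test, whose smallest possible p with 2 against 2 libraries is 0.33. The sign at Stab2 and Clec4g rested on B6 replicate 1, without which MSM was higher by 308 and 477.5 bp and the differences at Stab1 and Oit3 were 0 bp. With equal numbers of peaks the differences at Stab1, Stab2 and Oit3 were 0 bp, while that at Clec4g was −703.5 bp. The other 6 genes had 0 bp in all 4 parental libraries.

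Of the 4 genes with a parental peak, 0 had all values of one strain above all of the other, beside 11.6% (B6 higher) and 4.97% (MSM higher) of the 11446 genes with a parental peak (1323 and 569 genes). This balance turned with lists of equal covered length, where 1301 genes were higher in B6 and 1461 in MSM, and none of the 4 genes then had a peak. Likewise 0 of the 4 had a peak in both B6 and no MSM library or in both MSM and no B6 library, beside 1.74% and 0.874% of these genes. A peak in B6 replicate 1 and none in B6 replicate 2 was found for all 4 endothelial genes and for 17.5% of all genes. A peak in F1 BM and none in F1 MB was found for Stab1, Stab2, Oit3 and Dcn and for 7.41% of all genes. With 1 library per cross, this difference between the crosses cannot be told apart from a difference between libraries. The set of libraries with a peak at Stab2 was shared by 1.78% of all genes, that at Stab1 and Oit3 by 1.22%, that at Clec4g by 0.534% and that at Dcn by 0.552%.

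Other genes of the same and of other cell types placed these values on a wider scale. Of 29 further endothelial genes, 15, 2, 5, 14, 14 and 6 had a peak within 1 kb of the start in the library order above. Of 22 further Kupffer and macrophage genes the counts were 9, 0, 1, 2, 3 and 0. Of 22 further stellate and fibroblast genes they were 1, 1, 1, 1, 5 and 2. Without start peaks near the start of another protein-coding gene, the endothelial counts were 14, 2, 4, 13, 13 and 6. The macrophage and stellate counts did not change. The share of endothelial genes reached was thus higher than that of the macrophage and stellate lists in 6 of 6 libraries as deposited, a description without a test. It exceeded the share of all protein-coding genes in B6 replicate 1 (51.7% against 44.2%), MSM replicate 2 (48.3% against 36.2%) and F1 BM (48.3% against 35.3%). In the other libraries it was below that share, as the macrophage and stellate shares were in every library. With equal numbers of peaks the counts were 0, 2, 0, 5, 4 and 2 for endothelial, 0, 0, 0, 1, 2 and 0 for macrophage and 1, 1, 1, 1, 0 and 1 for stellate genes, beside 33.3%, 27.9%, 28.9%, 29.4%, 26.3% and 29.6% of all protein-coding genes. All 3 lists were thus below the share of all genes in every library, and the endothelial share was below the stellate one in B6 replicate 1 and MSM replicate 1. With equal covered length the endothelial share was below the stellate one in MSM replicate 1 (0 of 29 against 1 of 22) and MSM replicate 2 (1 of 29 against 1 of 22), and macrophage genes had 0 in every library. The stellate gene in each of these comparisons was Angptl6. It was also the only further stellate gene with a start peak in the B6 and MSM libraries as deposited, so these stellate shares rest on 1 gene. B6 replicate 1, whose list was the longest, thus had 9 macrophage genes with its whole list and 0 under either limit. Of 10 bile duct (cholangiocyte) genes 1 or 2 had a start peak in each library, and of 12 lymphocyte genes 0 did in any. Of 20 genes typical of other tissues 1 had a start peak in B6 replicate 1 and in F1 MB, Actn3 of fast muscle, whose start lies 759 bp from that of Zdhhc24. Hepatocyte genes, which check the tissue label, had a start peak for 18 of 19 in all 6 libraries, with Hnf4a as the one without. In the gene window all 19, Hnf4a included, had a peak in every library.

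Among endothelial genes Esam, an adhesion molecule of endothelial junctions, had a start peak in all 6 libraries, with folds of 6.62, 4.21, 4.01, 5.85, 4.71 and 5.85. It was present in B6 replicate 2 and F1 MB, where no endothelial gene of the 10 had a start peak. Eng (endoglin, a co-receptor of the TGF-beta family) had one in 5 libraries, and Ptprb (the endothelial phosphatase VE-PTP) and Kdr (VEGF receptor 2) in 4 each, with folds between 3.82 and 6.00 over the 3 genes. Among macrophage genes Irf8, a transcription factor of the myeloid lineage, had a start peak in 4 libraries with folds from 2.44 to 4.43, and Zeb2, another transcription factor, in 3. Clec1b, the CLEC-2 receptor, had one in 2 and Fcna, ficolin A, in 1. Among stellate genes Angptl6, an angiopoietin-like secreted protein, had a start peak in all 6 libraries with folds from 2.37 to 6.01. Hgf, the hepatocyte growth factor, had one in both F1 libraries, and Hand2 (a transcription factor) and Ecm1 (a matrix protein) in F1 BM alone, as Dcn did. Among bile duct genes Sox9, a transcription factor, and Krt23, a keratin, had one in 1 library each.

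**Figure D3:**
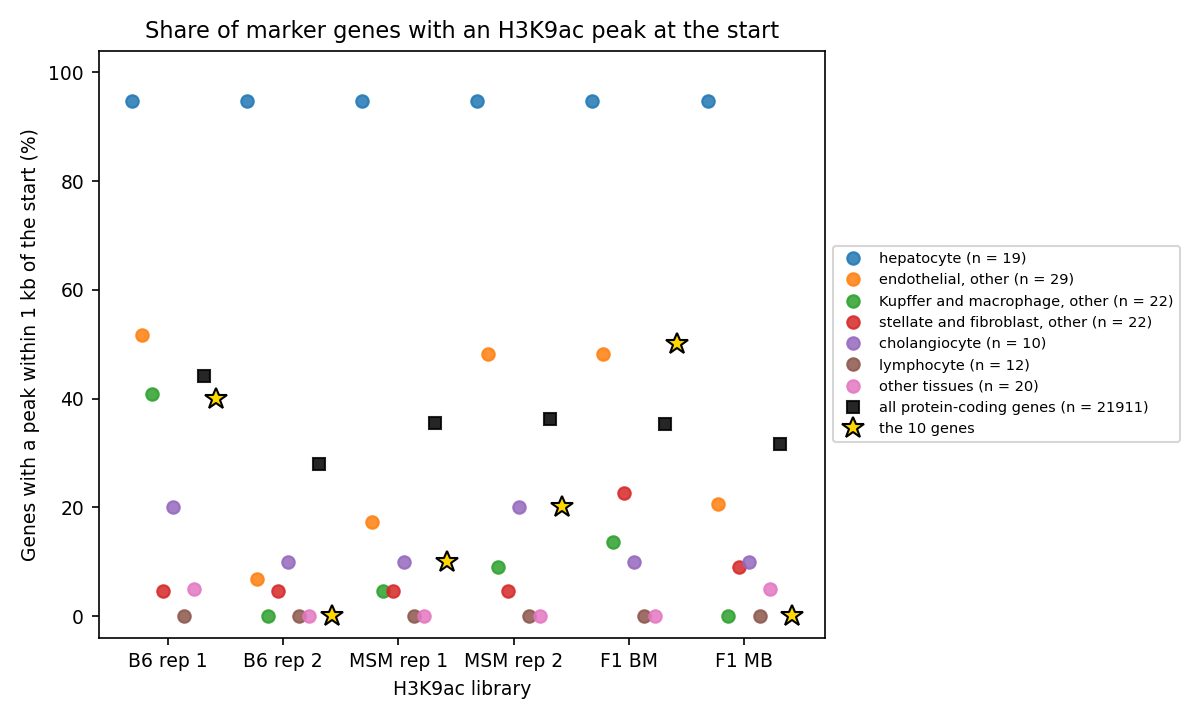
Share of genes with an H3K9ac peak within 1 kb of the start (vertical axis, %) in each of the 6 libraries (horizontal axis) for each marker list (circles), all protein-coding genes (squares) and the 10 genes (stars). Points stand for single libraries and are set side by side for legibility. Hepatocyte genes stay at 94.7% in every library, while the 10 genes move between 0 and 50%.

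The start peaks of the 10 genes had lower folds than those of most hepatocyte genes in the same library. In B6 replicate 1 the best start peaks of Stab1, Stab2, Clec4g and Oit3 had folds from 4.28 to 6.99, and 16 of 18 hepatocyte genes were above all of them. In MSM replicate 1 the Stab2 fold of 4.95 was exceeded by 16 of 18, and in MSM replicate 2 the higher of the Stab2 and Clec4g folds, 5.69, by 15 of 18. In F1 BM all 18 hepatocyte genes exceeded the 5 genes, whose folds were 3.34 to 5.45. The median hepatocyte fold was 10.05, 6.27, 9.91, 8.98, 7.14 and 8.24 in the library order above, and that of the further endothelial genes with a start peak was 4.53, 4.02, 4.01, 4.66, 3.31 and 3.91. The medians over all genes with a start peak were 7.17, 5.05, 5.86, 5.91, 3.84 and 5.17, between those of both groups in each library. These hepatocyte genes included Apob, Apoc3 and F2 (prothrombin), which encode secreted plasma proteins, with median folds over the libraries of 12.2, 12.0 and 11.7. Because genes without a peak have no fold, these values describe only the genes that were called.

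**Figure D4:**
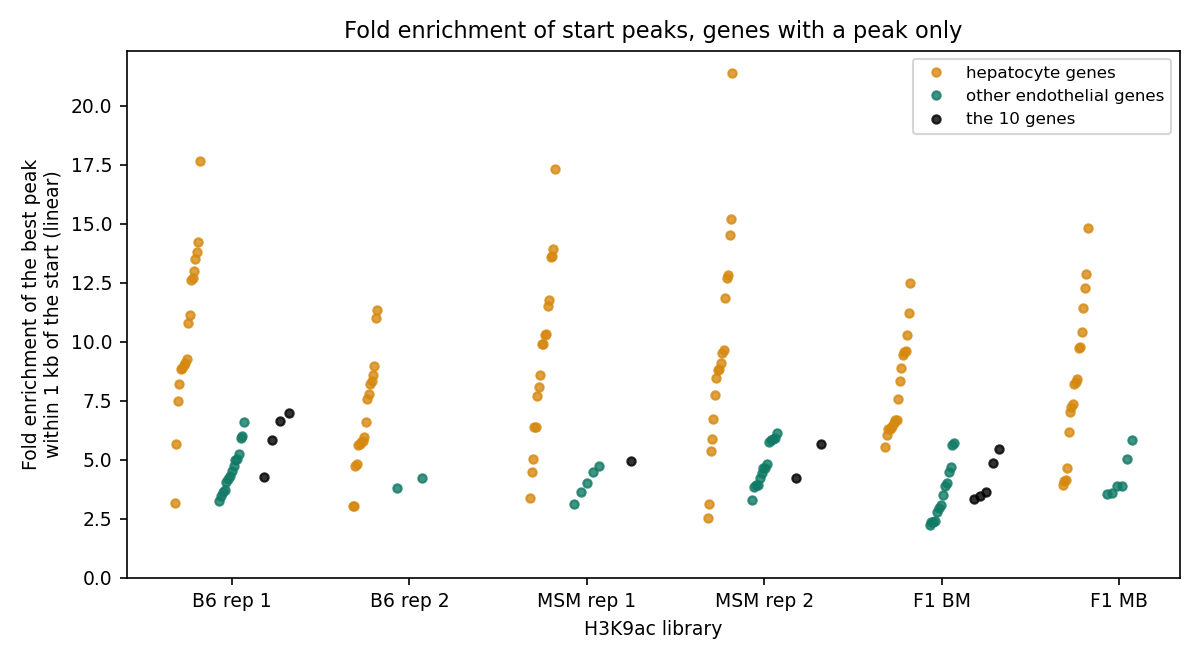
Fold enrichment (vertical axis, linear ratio) of the best peak within 1 kb of the start for each gene that had one, in each of the 6 libraries (horizontal axis), for hepatocyte genes (orange), further endothelial genes (green) and the 10 genes (black). Each point is 1 gene in 1 library. The black points of F1 BM, 3.34 to 5.45, lie below all orange points of that library.

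For each gene with a peak, the genes of the other lists with the most similar pattern were found from the percentile of the best peak within 5 kb of the start in each of the 6 libraries, with 0 for no peak. The mean absolute difference was smallest for Tek, the endothelial TIE2 receptor, both for Stab1 (5.84 percentile points) and for Oit3 (5.15). Next came Clec1b for Stab1 (8.79) and Fcna for Oit3 (8.30). Stab2 was closest to Sparc, a matrix-binding secreted protein (7.50), and then to Kdr (12.3), and Clec4g to Eng (9.50) and Ptprb (10.3). Dcn was closest to Vipr1 (0.0207), a receptor for vasoactive intestinal peptide, and Hand2 (0.314), which also had a peak in F1 BM alone. With only 6 libraries and many values at 0, these figures mostly record the same set of libraries with a peak.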

How the data were processed

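Peak lists in narrowPeak format, 1 per H3K9ac library, were deposited, so replicates were called separately. The study's methods name Trim Galore for trimming and Bowtie 2 for mapping to mm10, whereas the submitters' processing notes list Trim Galore, HISAT2, SAMtools and MACS2. Settings of the peak caller, and whether input served as control, were not given in the sources used here. MSM reads were mapped to the B6 reference, which can lose reads where the strains differ.

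Each deposited peak had a fold enrichment (a linear ratio), a −log10 p-value and a −log10 q-value computed by the authors. The score that the authors deposited was a rescaled −log10 q and was not used further, nor was the −log10 p. The lowest −log10 q in a list was 1.30 to 1.35. The lists hold no read counts, so library depth, on which −log10 q and the number of peaks depend, was not measured here, and absent peaks and peaks below detection cannot be told apart. No interval or detection limit was computed.

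Starts were converted to 1-based positions and intersected with GENCODE M21 genes (1 gene per symbol, the longest) in Python 3.11.15 with numpy 2.4.6, pandas 2.3.3 and scipy 1.17.1, and plotted with matplotlib 3.10.9. The overlap code was tested on simulated peaks. Strains were compared by the two-sided exact permutation test of mean covered length over the 6 assignments of 4 libraries. Members and marker lists were chosen with earlier results of these data known. All 10 members are named. Of each other list, up to 4 genes are named, those with a start peak in the most libraries and then the highest median fold, plus the 2 genes nearest in pattern to each member with a peak. Some genes that this rule names are not reported here. Of the hepatocyte list 19 of 20 symbols matched (Tf did not). Alternatives were stricter −log10 q limits, lists of equal number or length, other windows, each replicate left out and a replicate block.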

Additional observations from a re-analysis of the deposited data

How the results depend on the processing

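With only peaks of −log10 q of at least 5, the number of the 10 genes with a peak in the window was 0 in MSM replicate 1 and 0 for F1 MB, and the number with a start peak was 0 in MSM replicate 1 and 1 in MSM replicate 2. With equal numbers of peaks, both counts were 1 in B6 replicate 1, 0 in MSM replicate 1, 0 in MSM replicate 2, 2 in F1 BM and 0 in F1 MB, while 2 genes had a peak in at least 1 library. With equal covered length all of these counts were 0. Within 2.5 kb of the start, or at any transcript start, F1 MB had 1 gene. The number of genes with more covered length in MSM, without overlap, was 569, and became 856 with equal numbers of peaks and 1461 with equal length, while that with more in B6 went from 1323 to 1865 and 1301. Leaving out 1 parental library gave 576 (without B6 replicate 2) to 6250 (without B6 replicate 1) such genes, and 1342 (without B6 replicate 1) to 9629 (without B6 replicate 2) with more in B6. With 1 library left in a strain, non-overlap compares 1 value with 2, a looser condition than 2 against 2. These counts are therefore not on the same scale as 569 and 1323. The Stab2 difference ranged from −830 bp without B6 replicate 2 to 308 bp without B6 replicate 1, and that of Clec4g from −1495.5 to 477.5 bp without the same libraries. The causes of these shifts were not tested. A limit of −log10 q of at least 2, summits in place of overlaps, windows of 5 or 10 kb and the removal of peaks near other starts changed no count of the 10 genes, and within 500 bp of the start F1 BM had 4.

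The replicate numbers were not taken as pairs, since the deviations of same-numbered B6 and MSM libraries correlated at r = 0.0832 across 11446 genes. With a replicate block the differences remained −361 bp for Stab1, −261 bp for Stab2, −509 bp for Clec4g and −953 bp for Oit3, each with p = 1 in an exact sign-flip test whose smallest p with 2 pairs is 0.5. The lists limit all statements to peaks that passed the authors' threshold, and absence from a list sets no limit on acetylation.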
